A study of Rattus norvegicus with 7 samples.

Results

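The chaperones of the endoplasmic reticulum (ER) and the genes of the unfolded protein response were examined in alveolar type 2 cells, the epithelial cells of the lung alveolus that make and secrete surfactant. The members were taken by name: Hspa5, Hsp90b1, Pdia3, Pdia4, P4hb, Calr, Canx, Ddit3, Xbp1 and Atf4. Every probe set to which the array's annotation gave exactly 1 of these symbols was used. This gave 21 probe sets for 8 of the 10 genes, among 8740 probe sets and 4736 genes in all. No probe set carried the symbol Xbp1 or Atf4 in the annotation used here, so these transcription factors were not analysed and Ddit3 was the only measured regulator of the response among the members.

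The ethanol group was 3 male Sprague Dawley rats that received the liquid Lieber-DeCarli diet with ethanol, at 36% of calories, for 6 weeks. The control group was 4 male Sprague Dawley rats that received the isocaloric diet without ethanol for 6 weeks. The age of the animals was not given in the sources used here. An immuno-absorption step gave the type 2 cells, and their Trizol RNA was read on 1 Affymetrix expression array per animal. The replicate numbers, 2 to 4 for ethanol and 1 to 4 for control, are those of the titles. No ethanol replicate 1 is among the samples, and the sources used here give no reason. The control arrays carry the lower array numbers, so diet and any effect of array order cannot be told apart. Sftpc, the surfactant protein gene most particular to type 2 cells, averaged 12.58 in the ethanol group and 12.80 in the control group on the log2 scale of the array. Of 15 listed type 2 markers 9 were measured, 3 higher and 6 lower with ethanol (median log2 difference -0.22), and 0 passed in limma, with 1 at unadjusted p under 0.05, Fasn at 0.80. Over all 4736 genes, 2209 were higher and 2527 lower with ethanol. Of 13 listed macrophage and monocyte markers 6 were measured, 5 of them higher with ethanol (median 0.11, from -0.27 in Lyz2 to 0.63 in Ctss) and 0 past the test, and the log2 of their summed level ran from 11.35 to 11.96 in the ethanol arrays and from 11.54 to 12.12 in the control arrays. Lyz2, which carries most of that sum and is also made by type 2 cells, averaged 11.54 in the ethanol group and 11.82 in the control group. Of 18 listed fibroblast, smooth muscle and mesothelium markers 16 were measured, 13 of them lower with ethanol, and 0 passed in limma. Of these markers 7 had an unadjusted p under 0.05, where 4.37% of all genes did: 6 were lower, and 1, Sparc, was higher by 1.01. In such isolates, fewer cells of a type and less RNA per cell cannot be told apart.

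Secreted and membrane proteins are folded in the ER. Hspa5 (BiP, GRP78) is the HSP70 chaperone there and Hsp90b1 (GRP94) the HSP90 chaperone. Pdia3, Pdia4 and P4hb are protein disulfide isomerases, and calreticulin (Calr) and calnexin (Canx) are lectins that hold newly made glycoproteins until they are folded. When unfolded protein builds up, the sensors IRE1, PERK and ATF6 act through the factors XBP1, ATF4 and cleaved ATF6. These raise chaperone transcription and, when stress lasts, the transcription factor CHOP, which Ddit3 encodes. Surfactant proteins pass through this system, and mutant surfactant protein C is known to provoke the response in type 2 cells.

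Some of the member promoters hold a sequence through which ATF6 and XBP1 are known to act, the ER stress response element, which is CCAAT, then 9 bases of any kind, then CCACG. It was searched on both strands of the RefSeq promoter sequences of the GRCr8 assembly, in 250 bases before and 50 bases after each gene's start. An exact match was found in 22 of 33469 promoters (0.0657%) and in 5 of the 9 members with a promoter entry, namely Hspa5, Hsp90b1, Calr, Canx and Xbp1. The matches cover 4 of the 7 chaperone members, while Pdia4 and P4hb had none and Pdia3 had no entry. The matching stretches of these 5 genes are shown as a description. The element was searched because it is known in this pathway, so its share among the members is not an independent finding. Capitals mark the element, which in Calr and in the second Hsp90b1 site lies on the reverse strand of the promoter, so that it begins with the complement CGTGG.
Hspa5, chr3:38452896-38453015, plus strand: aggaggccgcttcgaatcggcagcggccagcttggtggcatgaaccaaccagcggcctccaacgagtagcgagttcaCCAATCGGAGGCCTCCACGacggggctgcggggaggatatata
Hsp90b1, chr7:23012431-23012489, minus strand: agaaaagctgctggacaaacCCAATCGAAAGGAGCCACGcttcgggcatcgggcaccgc
Hsp90b1, second site, chr7:23012327-23012385, minus strand: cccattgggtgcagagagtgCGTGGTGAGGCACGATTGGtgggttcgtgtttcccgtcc
Calr, chr19:40213117-40213173, plus strand: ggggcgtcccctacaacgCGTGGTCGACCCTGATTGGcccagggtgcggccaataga
Canx, chr10:35158049-35158107, minus strand: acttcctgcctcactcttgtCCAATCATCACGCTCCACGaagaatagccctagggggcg
Xbp1, chr14:84604538-84604596, plus strand: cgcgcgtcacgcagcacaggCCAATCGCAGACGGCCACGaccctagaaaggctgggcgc

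In Hspa5 the element ended 25 bases before the start, and in Canx it lay from 230 to 212 bases before it. The CCAAT box alone, which forms the first part of the element, was in 8 of the 9 member promoters and in 37.5% of all promoters. The core of the unfolded protein response element, TGACGTGG, was in 0 of 9 and 0.595%, and the C/EBP-ATF element TGATGNAAN, through which ATF4 acts with its partners, was in 0 of 9 and 3.97%. At such low shares in all promoters, 0 of 9 says little about the members, and bases further from the start were not searched. A match is a description of the letters in these windows and does not show binding.

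At baseline, the member probe sets ranged from bright to dim. Of the 21, 10 had a mean above 5.49, the upper quartile of all probe sets, and 6 were at or below 3.83, the lower quartile. Of the 8 genes, each represented by its probe set with the highest mean, 6 were above the upper quartile, as were 29.8% of all genes taken in the same way. The position of each probe set among the 8740 on its array is given as a percentile, as a description of brightness. Brightness depends on the probes as well as on the transcript, so the genes are not ranked against each other. Calr lay at the 96.9 to 97.3 percentile in the ethanol arrays and at the 97.0 to 97.5 percentile in the control arrays. Hsp90b1 lay at 93.5 to 96.4 in ethanol and 95.5 to 96.7 in control, and P4hb at 92.9 to 95.1 in ethanol and 93.7 to 95.8 in control. Hspa5 spanned more, from 82.3 to 93.5 in ethanol and from 80.9 to 93.3 in control. Ddit3 stood near the middle of the array, at 46.3 to 67.3 in ethanol and 29.9 to 54.2 in control.

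ER chaperone mRNA in the ethanol-fed rats was not distinguishable from that in the control rats at this number of animals. In limma (a moderated linear model, two-sided, with Benjamini-Hochberg adjustment over all 8740 probe sets), 0 of the 21 member probe sets had an adjusted p under 0.05, where 0.149% of all probe sets did (0.137% higher and 0.0114% lower with ethanol). At unadjusted p under 0.05 there were also 0 of 21, against 4.58% of all. The groups overlapped in every member probe set, whereas they were apart in 5.24% of all (2.53% with ethanol higher and 2.71% with ethanol lower), and in 4.92% of genes taken by 1 probe set each. Of the 8 genes 4 were higher and 4 lower with ethanol, and their log2 differences had a median of 0.026, while the median over all 4736 genes was -0.014. The arrays stand for separate animals, so these p-values set the diet difference against the spread between animals.

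**Figure D1:**
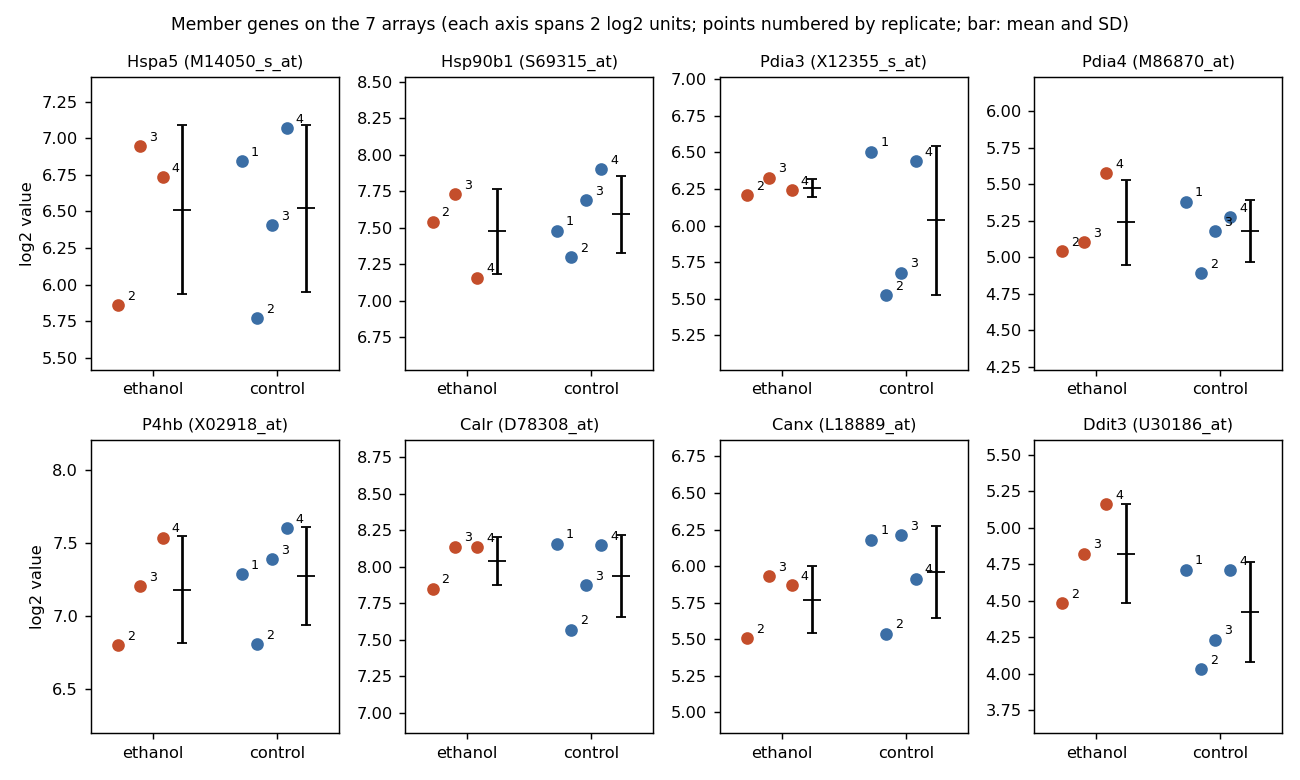
Log2 value (vertical axis, spanning 2 log2 units in each panel) of the 8 measured member genes in the 3 ethanol arrays (left, orange) and the 4 control arrays (right, blue), each by its brightest probe set. Points are numbered by replicate, and the bars give mean and SD. The groups overlap in all 8 genes, and control 2 is the lowest array in 5 of them.

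The HSP70 chaperone Hspa5 had nearly equal means in both groups and a wide spread within each. Its main probe set, M14050_s_at, lay at 5.86, 6.95 and 6.73 in the ethanol arrays and at 6.84, 5.77, 6.41 and 7.07 in the control arrays. Both groups held an array below 5.9, ethanol 2 and control 2, and others near 7. The means were 6.51 ± 0.57 with ethanol (SD, n = 3) and 6.52 ± 0.57 in control (SD, n = 4). The log2 difference, ethanol minus control, was -0.0089 (SE 0.33, limma adjusted p = 0.999), with a 95% confidence interval of -0.76 to 0.74. The other probe sets of Hspa5, S63521_i_at and S63521_r_at, were below the lower quartile and had differences of 0.21 and 0.043.

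The HSP90 chaperone Hsp90b1 lay at 7.54, 7.73 and 7.16 in the ethanol arrays and at 7.48, 7.30, 7.69 and 7.90 in the control arrays (S69315_at). Ethanol 4 was the lowest array here, although it was above the control mean in most other members. The difference was -0.12 (SE 0.18, limma adjusted p = 0.971), with an interval of -0.53 to 0.29. The dimmer probe sets AA685903_at and S69316_s_at had differences of 0.19 and 0.10, opposite in sign to the first. In S69316_s_at ethanol 4 was the second highest array, at 5.75, so the Hsp90b1 probe sets disagreed on that animal.

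Among the disulfide isomerases, Pdia3 had a narrow ethanol group within a wide control group. In X12355_s_at the ethanol arrays lay close together, at 6.21, 6.33 and 6.24, while the control arrays fell into a lower and a higher pair, at 5.52 and 5.68 in control 2 and 3 and at 6.51 and 6.44 in control 1 and 4. The ethanol values thus lay inside the control range, and the difference was 0.22 (SE 0.24, limma adjusted p = 0.971), or 0.050 without control 2. The other probe set of Pdia3 was below the lower quartile and differed by 0.065. Pdia4, an isomerase with additional thioredoxin-like domains, lay at 5.04, 5.10 and 5.57 in ethanol and at 5.38, 4.89, 5.18 and 5.27 in control (M86870_at). Ethanol 4 was the highest array and control 2 the lowest. The difference was 0.060 (SE 0.17, limma adjusted p = 0.979).

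P4hb, the isomerase that is also a subunit of collagen prolyl 4-hydroxylase, had 3 probe sets, and each was lower with ethanol without passing the test. X02918_at lay at 6.80, 7.21 and 7.54 in ethanol and at 7.29, 6.81, 7.39 and 7.60 in control, a difference of -0.090 (SE 0.22, limma adjusted p = 0.973). X02918_g_at lay at 6.02, 6.39 and 6.60 in ethanol and at 6.55, 6.56, 6.49 and 6.50 in control. In this probe set the controls were close together and ethanol 2 and 3 lay below all of them, but ethanol 4 lay above. Its difference was -0.19 (SE 0.15, limma adjusted p = 0.967). M21476_s_at differed by -0.20, with control values from 5.05 to 6.47 around ethanol values from 5.42 to 5.66. The widths of the control spread, 0.067 in X02918_g_at and 1.42 in M21476_s_at, show that probe sets of a single gene did not report the animals alike.

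Of the lectin chaperones, calreticulin was close to the same level in both groups. Calr lay at 7.85, 8.14 and 8.13 in ethanol and at 8.16, 7.57, 7.87 and 8.15 in control (D78308_at), a difference of 0.10 (SE 0.17, limma adjusted p = 0.971). Its other probe sets, D78308_g_at and X53363cds_s_at, differed by -0.096 and -0.078. Calnexin lay at 5.51, 5.93 and 5.87 in ethanol and at 6.18, 5.54, 6.21 and 5.91 in control (Canx, L18889_at). Ethanol 2 and control 2 were its lowest arrays, and the difference was -0.19 (SE 0.19, limma adjusted p = 0.967), or from -0.33 to -0.060 with 1 array left out. The other 4 Canx probe sets were dimmer and differed by -0.27 to 0.072. In rc_AI010725_at and rc_AI010725_g_at control 2 was the highest array, at 4.73 and 4.16, whereas in L18889_at it was the lowest control.

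Ddit3, which encodes CHOP, had the greatest difference of the 8 genes and the lowest p, and it did not pass the test. Its probe set U30186_at lay at 4.48, 4.82 and 5.16 in the ethanol arrays and at 4.71, 4.03, 4.23 and 4.71 in the control arrays. Ethanol 3 and 4 were above every control, while ethanol 2 was below control 1 and control 4. The means were 4.82 ± 0.34 with ethanol (SD, n = 3) and 4.42 ± 0.34 in control (SD, n = 4), a log2 difference of 0.40 (SE 0.22, unadjusted p = 0.0956, limma adjusted p = 0.967). The 95% interval ran from -0.085 to 0.88. With each array left out in turn the difference stayed between 0.23 and 0.57.

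**Figure D2:**
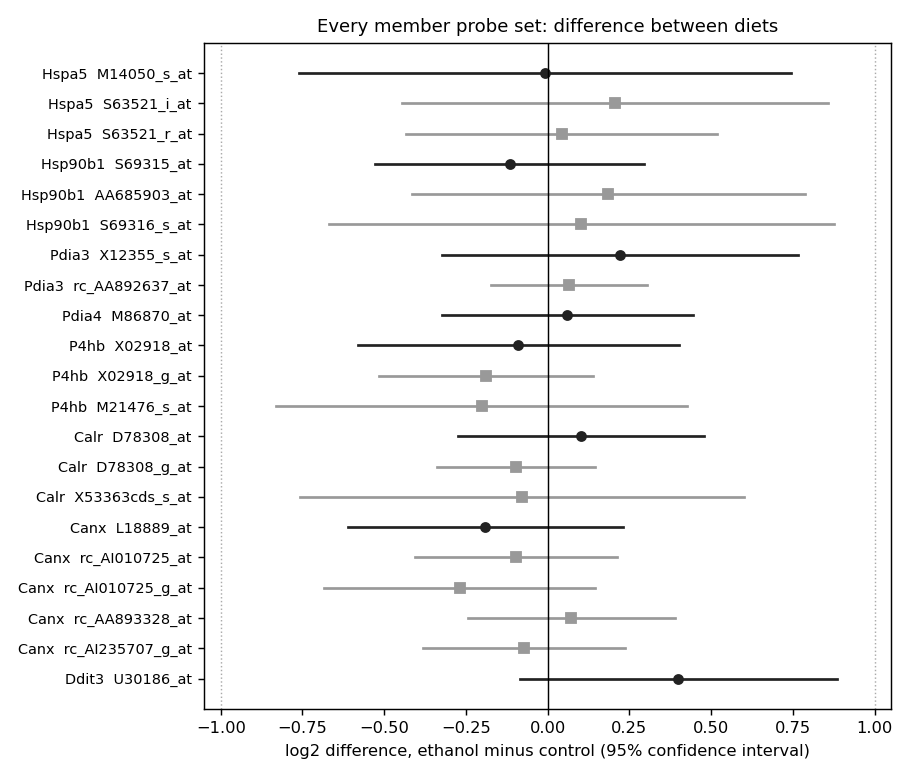
Log2 difference, ethanol minus control, with its 95% confidence interval (horizontal axis) for each of the 21 member probe sets. Black circles mark the probe set that stands for the gene, grey squares the others, and dotted lines a log2 difference of 1 in either direction. Every interval includes 0 and lies inside the dotted lines.

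The intervals bound differences in probe set signal, which for the 6 probe sets at or below the lower quartile need not bound a change in mRNA. The 95% interval lay within a 2-fold change in either direction for 21 of the 21 probe sets, and within a 1.5-fold change for 11 of them. All 8 genes had an interval within 2-fold, as had 96.7% of all genes. Of the 8 genes, 4 had an interval within 1.5-fold, whereas 74.5% of all genes had one. The 4 genes with the wider intervals, Hspa5, Pdia3, Canx and Ddit3, could therefore have changed by over 1.5-fold at the edge of their intervals. This division rests on 1 probe set a gene. Dimmer probe sets of Hsp90b1, P4hb and Calr also had wider intervals. They ran from -0.67 to 0.87 in S69316_s_at, from -0.83 to 0.43 in M21476_s_at and from -0.76 to 0.60 in X53363cds_s_at.

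Single arrays stood low or high across the members. Control 2 was the lowest of the 7 arrays in 5 of the 8 genes, where it was the lowest in 22% of all genes, and control 4 was the highest in 3 of the 8. Among probe sets above the upper quartile, control 2 was the lowest in 5 of the 10 member probe sets and in 32.5% of all. Control 4 was the highest in 6 of these 10 and in 14% of all. Relative to each gene's mean over the 7 arrays, the median of the 7 chaperone genes was -0.16, 0.15 and 0.15 in ethanol 2, 3 and 4, and 0.18, -0.41, -0.029 and 0.31 in control 1, 2, 3 and 4. In control 2 all 7 chaperones were below their mean, by 0.25 to 0.75. In control 4 all 7 were above it, by 0.035 to 0.55. Ddit3 deviated by -0.11, 0.23 and 0.57 in ethanol 2, 3 and 4 and by 0.12, -0.56, -0.36 and 0.12 in control 1, 2, 3 and 4.

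**Figure D3:**
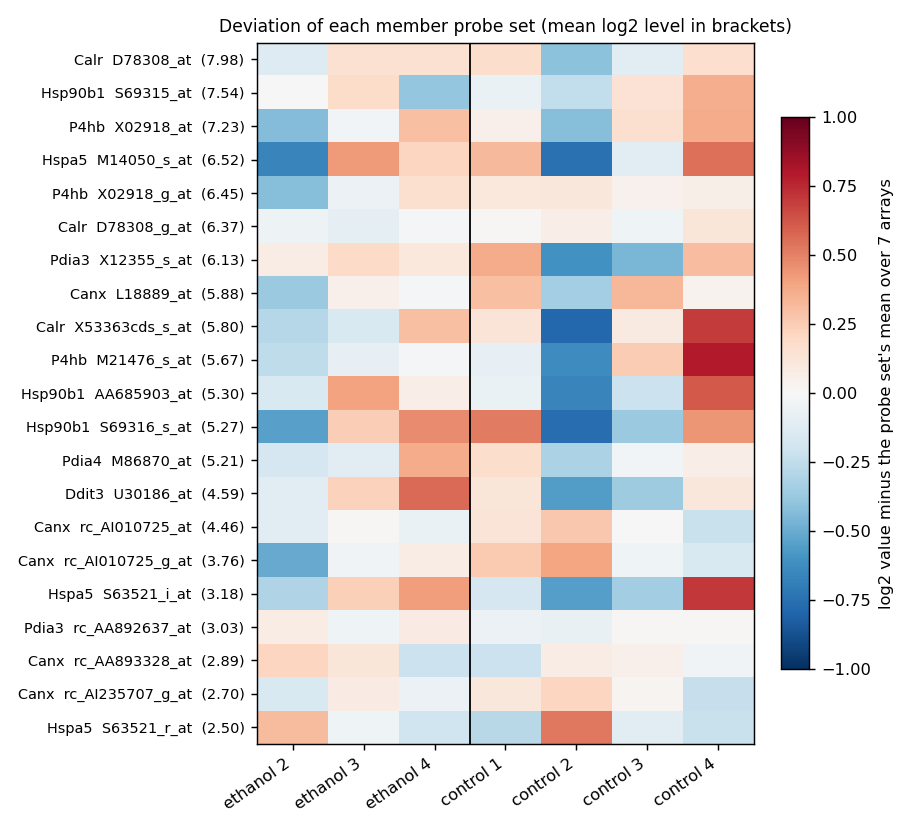
Log2 value of each member probe set minus its mean over the 7 arrays (colour; red above, blue below), with the ethanol arrays left of the line and the control arrays right of it. Rows run from the brightest to the dimmest probe set, with the mean log2 level in brackets. In most rows of the upper part control 2 is blue and control 4 is red. Of the dim rows at the bottom, S63521_i_at of Hspa5 shares this, rc_AA892637_at of Pdia3 does so only faintly (-0.072 and 0.013), and the others do not.

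The arrays also differed as a whole, and whether this bears on the pattern was not tested. The log2 values of a single array had an SD of 1.34, 1.39 and 1.46 in ethanol 2, 3 and 4, and 1.40, 1.29, 1.36 and 1.44 in control 1, 2, 3 and 4, so control 2 had the least contrast between bright and dim probe sets. Control 2 was also apart on the first principal component, at 30.5 against -18.9 to 5.83 on the other arrays. Over the 2185 brightest probe sets the median deviation was -0.10 in control 2 and 0.028 in control 4, smaller than that of the chaperones. The 3' minus 5' signal of actin, a measure of RNA integrity, was 0.645 to 1.10 in the ethanol arrays and 0.608 to 1.01 in the control arrays, with 0.748 in control 2. With the SD of each array added to the model, a choice made after seeing the data, the member genes' differences ran from -0.26 in Canx to 0.28 in Ddit3, and 0 of the 21 probe sets passed. Without control 2 the difference of Ddit3 was 0.27 and that of Hspa5 was -0.26, and 0 passed.

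The 5 genes whose values followed Hspa5 most closely over the 7 arrays were not ER chaperones, although the member Calr also followed it closely. By Pearson correlation of log2 values, with 1 probe set a gene, they were the adhesion molecule gene Icam1 (0.98), the methionine adenosyltransferase gene Mat2a (0.98), the phosphatase subunit gene Ppp2cb (0.97), the translation factor gene Eif5 (0.96) and the transcription factor gene Cebpb (0.96). Among the members, Calr came nearest at 0.93 (rank 19 of all genes), followed by P4hb at 0.85 (rank 135), and Hsp90b1 came last at 0.42. The Hsp90b1 value is that of S69315_at alone, since its dimmer probe sets were not correlated. Of these, S69316_s_at deviated from its mean by -0.54 in ethanol 2 and -0.76 in control 2, where Hspa5 deviated by -0.66 and -0.75. Ddit3 was followed most closely by Rhob, which encodes a small GTPase, at 0.98, and by Hdac2, Gpt, Kat5 and Ctps2, each at 0.98. All these genes were read on the same 7 arrays, control 2 included, so the correlations describe these arrays only.

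The wider pathway was counted from lists of genes by role, leaving out the members. In all, 57 of 152 listed ER and unfolded protein response genes were measured. Of these 30 were higher and 27 lower with ethanol, 0 had an adjusted p under 0.05 in limma, and 3 had an unadjusted p under 0.05, all lower. Their median was 0.031. Among all 4736 genes, 2209 were higher and 2527 lower, 0.0211% passed and 4.37% had an unadjusted p under 0.05.

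**Figure D4:**
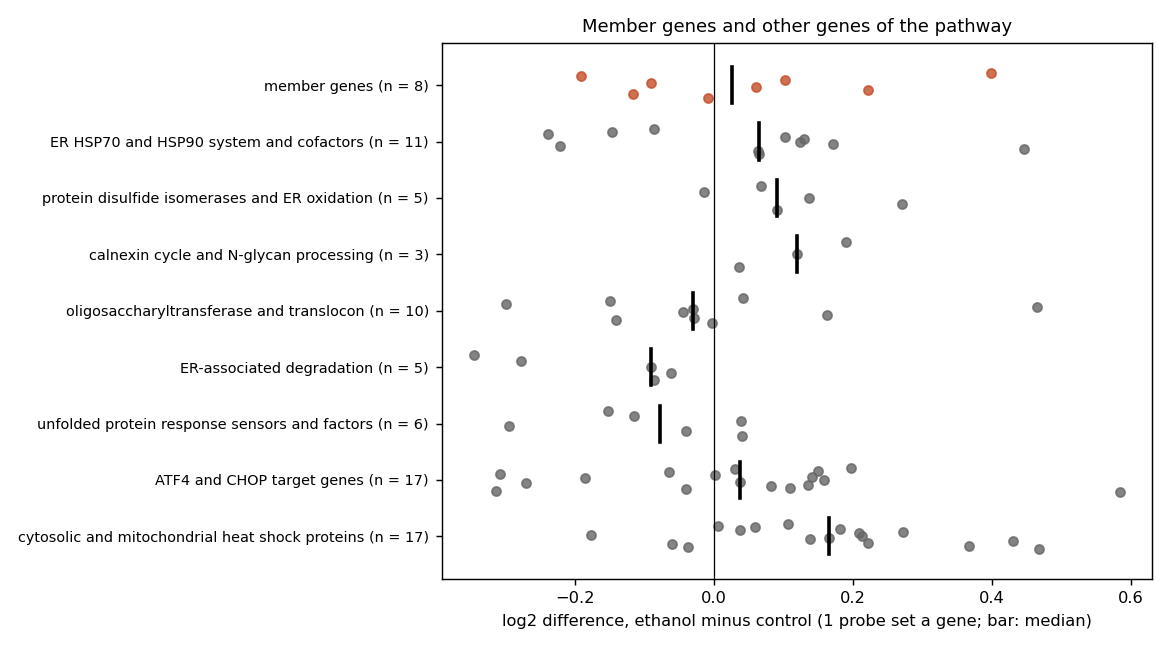
Log2 difference, ethanol minus control (horizontal axis), of the member genes (orange) and of the other measured genes of each list (grey), with 1 probe set a gene and a bar at the median. All medians lie between -0.091 and 0.17, with the heat shock proteins of the cytosol and mitochondria at 0.17, or 0.051 without control 2.

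Folding factors that work beside the members had small differences in both directions. Of 11 further HSP70 and HSP90 system genes 7 were higher and 4 lower (median 0.065). The greatest difference was that of Dnajc1, an ER membrane J-domain protein, which lay at 5.07, 4.84 and 4.43 in ethanol and at 3.79, 4.74, 4.67 and 4.12 in control, a difference of 0.45 with overlapping groups (limma adjusted p = 0.967). Calu and Rcn1, which encode calcium-binding proteins of the secretory pathway, were at -0.24 and -0.15. Of 5 further disulfide isomerase and oxidation genes 4 were higher (median 0.091). In this list the isomerase gene Pdia6 was at 0.27, Erp29 at 0.14 with its other probe set at 0.00027, and the peroxidase gene Gpx7 at 0.067. All 3 measured genes of N-glycan processing were higher by small amounts: the cargo receptor gene Lman1 at 0.19, with other probe sets at 0.049 and -0.18, the mannosidase gene Man2a1 at 0.12 and the glucosidase gene Mogs at 0.035.

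Entry into the ER and removal from it were also measured in part. Of 10 oligosaccharyltransferase and translocon genes 3 were higher and 7 lower (median -0.030). Sec62, of the translocon, was at 0.46, Ssr3, of the translocon-associated complex, at -0.30 with its other probe set at 0.084, and Dad1, an oligosaccharyltransferase subunit, at 0.16. In Dad1 the probe set Y13336cds_g_at had an unadjusted p of 0.0414, with 7.56, 7.57 and 7.83 in ethanol above 7.20, 7.10, 7.45 and 7.52 in control, and a limma adjusted p of 0.967. All 5 measured genes of ER-associated degradation were lower, with a median of -0.091, where 2527 of all 4736 genes were lower. The ubiquitin-conjugating enzyme gene Ube2g2 lay at 6.65, 6.58 and 6.62 in ethanol, below every control at 6.91, 7.01, 6.95 and 6.70, a difference of -0.28 (limma adjusted p = 0.967). Vcp, the ATPase that extracts proteins from the ER, was at -0.35 with overlapping groups, and Ube2j2 at -0.091.

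The signalling genes of the response did not pass either. Of 6 sensors and factors 2 were higher and 4 lower (median -0.078). Eif2s1, the translation factor subunit that PERK phosphorylates, was at -0.30 (unadjusted p = 0.057), Traf2 at -0.15 and the cell death gene Bak1 at -0.11. Eif2ak3, which encodes PERK and was chosen after its values were seen, had differences of 0.041 and -0.11 in its probe sets. Of 17 genes that ATF4 and CHOP are known to induce, 11 were higher and 6 lower (median 0.038). The 2 of them with an unadjusted p under 0.05 were lower, Phgdh and Trib3. Trib3, a pseudokinase gene that CHOP induces, lay at 5.60, 5.87 and 5.66 in ethanol and at 6.11, 6.20, 6.00 and 5.79 in control, a difference of -0.31 (limma adjusted p = 0.967). Its other probe set, rc_H31287_g_at, lay at 5.21, 5.15 and 5.17 in ethanol, below 5.37, 5.70, 5.75 and 5.51 in control. Phgdh, the first enzyme of serine synthesis, was also at -0.31, and its 3 probe sets ran from -0.31 to -0.27. The stress gene Nupr1 was at -0.27. Atf3, a transcription factor of the same response, was picked after its values were seen because it had the greatest difference of the list, 0.58, with 7.22, 8.50 and 8.89 in ethanol and 7.91, 7.29, 7.32 and 7.96 in control. Ethanol 3 and 4 were above every control, as for Ddit3, while ethanol 2 was the lowest of the 7 arrays (limma adjusted p = 0.967). Ppp1r15a, which encodes the phosphatase subunit GADD34, was also chosen after its values were seen and was at 0.11.

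The heat shock proteins of the cytosol and mitochondria are the chaperones nearest in kind. Of 17 such genes, 14 had a higher and 3 a lower mean with ethanol (median 0.17), and 0 passed in limma with 1 at unadjusted p under 0.05. Over all 4736 genes, 2209 were higher, and 4.37% had an unadjusted p under 0.05. The genes of lowest p in this list were Hspb1, Hspa1a and Hspa2. Hspb1, a small heat shock protein, was at 0.43 with other probe sets at 0.0054, 0.98 and 0.76. Hspa1a, the inducible cytosolic HSP70, was at 0.47, and the HSP70 gene Hspa2 at 0.37, from a probe set below the lower quartile. Of the list's other Hspa genes, Hspa9 was at 0.22, Hspa1l at -0.037 and Hspa4 at -0.061. The cytosolic HSP90 gene Hsp90ab1 was at 0.17. Hspa5 and Hsp90b1, the ER relatives of the HSP70 and HSP90 proteins, were at -0.0089 and -0.12. Their other probe sets were at 0.21 and 0.043 in Hspa5 and at 0.19 and 0.10 in Hsp90b1. Control 2 was the lowest array in the main probe set of Hspb1, Hspa1a and Hspa2. Without it the list's median was 0.051 and Hspa1a was at 0.22, and without ethanol 4 the median was 0.054. The difference between the ER and cytosolic groups was not tested.

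Of the 21 genes whose promoter held the ER stress response element, 7 were measured, 4 of them members. In these 7, 3 were higher and 4 lower with ethanol and 0 had an unadjusted p under 0.05. The 3 that were not members, Ero1b, Foxd4 and Hnrnpa3, were at -0.014, 0.048 and 0.023. This grouping was made with the members' values known.

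Antibody-secreting plasma cells are rich in ER chaperones, and immunoglobulin kappa signal was higher in the ethanol isolates. All 7 kappa light chain probe sets, each annotated to several symbols, passed in limma with log2 differences of 1.61 to 2.29, where 0.149% of all probe sets passed. Of 13 listed plasma cell markers 2 were measured. Sdc1 was at 0.092 and Fkbp11, which encodes an ER prolyl isomerase, at -0.43 (limma unadjusted p = 0.0376, adjusted p = 0.967). Neither is particular to plasma cells. Of 10 listed B cell markers 3 were measured, all lower with ethanol, from -0.091 to -0.047, and 0 passed. The 7 chaperone members had a median difference of -0.0089. The part of plasma cells in the chaperone levels was not tested.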

How the data were processed

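The measurement was gene expression on Affymetrix arrays, 3 with ethanol and 4 control. The log2 values were used as deposited by the authors; their summarisation and normalization are not given in the sources used here. That they are on a log2 scale was read from their range, 1.65 to 12.84. Of 8799 probe sets, 59 array controls were left out and 8740 tested. The platform annotation gave 7006 of them 1 symbol, 308 several and 1426 none, and 6985 of those with 1 symbol matched RefSeq GRCr8 by Entrez identifier.

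Differences are ethanol minus control from limma 3.58.1 in R 4.3.3 (lmFit and eBayes, Benjamini-Hochberg adjustment over 8740 probe sets, threshold 0.05), tested on simulated data. Each gene was represented by its probe set of highest mean across all 7 arrays. Array correlations were 0.929 to 0.983, and the number of arrays limits the precision (median SE 0.15). The replicate numbers were not treated as pairs, since the labels name no pairing. Whether same-numbered arrays belong together was not settled. Named genes were the members, the 3 genes of lowest p in each related list, the 5 most correlated with Hspa5 and with Ddit3, and the kappa probe sets and cell type markers that bear on a member. Atf3, Eif2ak3, Ppp1r15a, Hspa9, Hspa1l, Hspa4 and Hsp90ab1 fall outside this rule and were named after their values were seen. So were Ero1b, Foxd4 and Hnrnpa3 from the promoter search. The members and lists were chosen with earlier results of these data known.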

Additional observations from a re-analysis of the deposited data

Results flagged for a closer look

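The 4 control arrays were examined for a single distant value in 45 probe sets, those of the members included, and 2 were found, and chance gives about 1 in 20. In Erp29, which encodes a disulfide isomerase relative of the ER, control 1 was at 7.96 in U36482_g_at, while the other controls lay between 7.54 and 7.60. In Ssr3, of the translocon-associated complex, control 3 was at 6.86 in Z14030_at, while the other controls lay between 6.56 and 6.58. No member probe set had such a control array.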

How the results depend on the processing

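Under 15 other settings no member gene passed, and the lowest adjusted p in limma was 0.343, in Ddit3. Of 120 member gene values, 18 had another sign, in 5 genes, and the cause was not tested. Hspa5 was at 0.0034 with median centring, 0.17 with array weights and 0.080 as the mean of its probe sets, Hsp90b1 at 0.057 as that mean, Pdia4 at -0.039 with array weights and at -0.023 with the array SD as a covariate (chosen after seeing the data), and Calr at -0.044 with quantile normalization and -0.024 as the mean. Among single probe sets, S69316_s_at was at -0.10 with the covariate, rc_AI235707_g_at at 0.0073 and Mogs at -0.12 with array weights. The median of ER-associated degradation was -0.28 without probe sets below the lower quartile, which leaves fewer genes. The heat shock median was 0.054 with array weights and ran from 0.051 to 0.23 with an array left out.

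The replicate numbers were not used as pairs. The deviations of same-numbered arrays from their group means correlated at 0.425, 0.067 and 0.432. Arrays with different numbers were not compared in this way, so these values cannot decide whether the samples are paired. With the replicate block, 23 probe sets passed in place of 13, none a member, Hspa5 was at 0.098 and S63521_r_at at -0.043.

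With each array left out, Hspa5 ran from -0.26 to 0.32, Hsp90b1 from -0.24 to 0.042, Pdia3 from 0.050 to 0.38, Canx from -0.33 to -0.060, Pdia4 from -0.11 to 0.16, P4hb from -0.27 to 0.099 and Calr from -0.020 to 0.20. S63521_r_at ran from -0.10 to 0.23, AA685903_at from -0.0065 to 0.42, S69316_s_at from -0.14 to 0.40, M21476_s_at from -0.44 to 0.034, X53363cds_s_at from -0.35 to 0.14 and rc_AA893328_at from -0.017 to 0.20. Erp29 ran from -0.12 to 0.39 and Mogs from -0.041 to 0.13.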
